A study of Mus musculus with 4 samples.

Results

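The regions described here are ATAC-seq peaks whose summit lay in the coding part of an exon, away from gene starts. A peak was counted when its summit, the base with the highest read pile-up, fell on a coding base of a curated RefSeq transcript on chromosomes 1 to 19 and more than 2 kb from every curated transcription start site. The rule found 4685 peaks among the 335140 peaks of these chromosomes, and 342011 peaks were listed in all. Overlapping peaks of different libraries were merged into 2858 sites, which lay in 2466 of the 17020 genes with a coding exon far enough from a start. The rule did not ask for an internal exon, and 76.9% of the sites lay in an internal exon while 22.7% lay in the last exon of their host transcript, so they are called coding-exon sites.

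Chromatin accessibility was measured in visceral adipose tissue of 8-week-old mice of CD-1, an outbred stock, in 2 control and 2 BPA libraries. The control animals descended from pregnant females injected with sesame oil, and the BPA animals from females injected daily with 50 mg/kg of bisphenol A, used to make plastics, from embryonic day 7.5 to 13.5. The sampled animals were later descendants that were not injected themselves, and the generation is given differently in the labels and in the study's methods. Neither sex nor batch was labelled, and nothing said whether the 2 libraries of a group came from separate litters, so the spread between them may be partly technical. Read totals were not given, and depth was judged from the pile-up at the summits.

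In ATAC-seq a transposase cuts DNA that is not wrapped in nucleosomes, so that peaks mark promoters, enhancers and insulators. Most distal elements lie in introns or between genes, but some lie in exons, where the same bases both encode protein and can be bound by transcription factors. Coding exons are richer in G+C than the introns around them, and the last coding exon of a gene often runs on into the untranslated end of the message.

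The sequences around 8 summits are shown because these are the best-ranked sites of 3 kinds, those with a peak in all 4 libraries, those of both BPA libraries alone and those of both control libraries alone. Capitals mark coding bases of the host transcript and lower case marks intron, all read 5′ to 3′ on the strand of the gene from the RefSeq copy of GRCm38, the assembly that mm10 names. The first 4 had a peak in all 4 libraries, and the windows are chr17:17838066-17838266 on the plus strand, chr4:143162047-143162247 on the minus strand, chr4:117120727-117120878 on the minus strand, which was cut at the stop codon, and chr7:127935534-127935734 on the minus strand.
Spaca6 exon 7: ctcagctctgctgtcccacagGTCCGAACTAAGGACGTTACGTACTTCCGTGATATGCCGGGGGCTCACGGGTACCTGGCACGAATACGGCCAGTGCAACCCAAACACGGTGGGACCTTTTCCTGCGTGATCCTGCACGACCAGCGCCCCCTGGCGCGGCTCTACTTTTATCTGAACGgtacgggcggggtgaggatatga
Prdm2 exon 6: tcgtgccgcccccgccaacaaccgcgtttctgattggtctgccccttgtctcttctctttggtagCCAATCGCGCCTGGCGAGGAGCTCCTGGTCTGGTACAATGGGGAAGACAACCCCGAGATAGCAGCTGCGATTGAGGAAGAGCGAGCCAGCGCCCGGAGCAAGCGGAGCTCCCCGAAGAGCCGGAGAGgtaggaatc
Btbd19 exon 8: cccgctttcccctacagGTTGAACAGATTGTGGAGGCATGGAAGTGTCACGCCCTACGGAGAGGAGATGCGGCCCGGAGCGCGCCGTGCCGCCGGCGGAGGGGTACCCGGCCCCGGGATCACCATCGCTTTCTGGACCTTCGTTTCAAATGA
Prss36 exon 10: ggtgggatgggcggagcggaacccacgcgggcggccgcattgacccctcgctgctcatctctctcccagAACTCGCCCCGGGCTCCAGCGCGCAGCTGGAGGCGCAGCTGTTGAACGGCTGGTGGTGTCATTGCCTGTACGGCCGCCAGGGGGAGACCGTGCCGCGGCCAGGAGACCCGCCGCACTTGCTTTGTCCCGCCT

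The next pair had a peak in both BPA libraries and over neither control library, at chr2:59838892-59839092 and chr9:107983252-107983452, both on the plus strand.
Tanc1 exon 24: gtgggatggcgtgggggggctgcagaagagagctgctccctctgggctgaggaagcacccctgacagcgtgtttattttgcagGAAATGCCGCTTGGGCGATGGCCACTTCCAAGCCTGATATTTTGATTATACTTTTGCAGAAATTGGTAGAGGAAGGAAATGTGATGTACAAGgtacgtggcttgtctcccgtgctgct
Uba7 exon 23: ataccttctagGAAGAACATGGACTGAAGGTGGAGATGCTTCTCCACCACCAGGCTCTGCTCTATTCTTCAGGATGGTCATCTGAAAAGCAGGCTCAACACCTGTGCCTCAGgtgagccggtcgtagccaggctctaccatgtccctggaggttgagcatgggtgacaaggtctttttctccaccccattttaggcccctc

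The last pair had a peak in both control libraries and over neither BPA library, at chr10:121689700-121689900 and chr10:63566779-63566979, both on the plus strand.
D930020B18Rik exon 12: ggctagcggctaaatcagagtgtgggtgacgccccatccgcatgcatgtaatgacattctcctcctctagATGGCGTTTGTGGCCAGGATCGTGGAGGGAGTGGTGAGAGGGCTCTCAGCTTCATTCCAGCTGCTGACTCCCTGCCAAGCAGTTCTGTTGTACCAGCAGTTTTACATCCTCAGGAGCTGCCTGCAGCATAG
Ctnna3 exon 4: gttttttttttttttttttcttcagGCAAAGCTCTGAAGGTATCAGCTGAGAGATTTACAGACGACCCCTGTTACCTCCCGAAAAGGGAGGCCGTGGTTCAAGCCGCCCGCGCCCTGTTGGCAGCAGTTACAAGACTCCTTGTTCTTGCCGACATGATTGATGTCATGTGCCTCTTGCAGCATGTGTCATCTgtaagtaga

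All 8 windows crossed an exon boundary within 100 bp of the summit, and the peaks themselves were wider than most exons. The coding share of the bases of such a peak had a median of 41.5% (control 1), 47.4% (control 2), 50.7% (BPA 1) and 37.6% (BPA 2). Most of these peaks were therefore open regions around an exon, with the summit on coding bases. At the rule's edge the nearest summit kept was 2002 bp and the nearest left out 1998 bp from a start, and 4056 coding summits lay within the excluded distance.

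Coding-exon peaks made up a small share of every list. They were 865 of 80840 autosomal peaks in control 1, which is 1.07% (95% Wilson interval 1.00 to 1.14), and 1151 of 86992 or 1.32% (1.25 to 1.40) in control 2. They were 1129 of 71128 or 1.59% (1.50 to 1.68) in BPA 1 and 1540 of 96180 or 1.60% (1.52 to 1.68) in BPA 2. Both BPA libraries lay above both control libraries, and the controls also differed from each other by more than counting error. The mean was 1.20% ± 0.179 (SD, n = 2) in the control group and 1.59% ± 0.00982 (SD, n = 2) in the BPA group, a difference of 0.398 percentage points. The exact permutation test, two-sided, gave p = 0.33, the smallest value that 2 libraries against 2 allow.

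**Figure D1:**
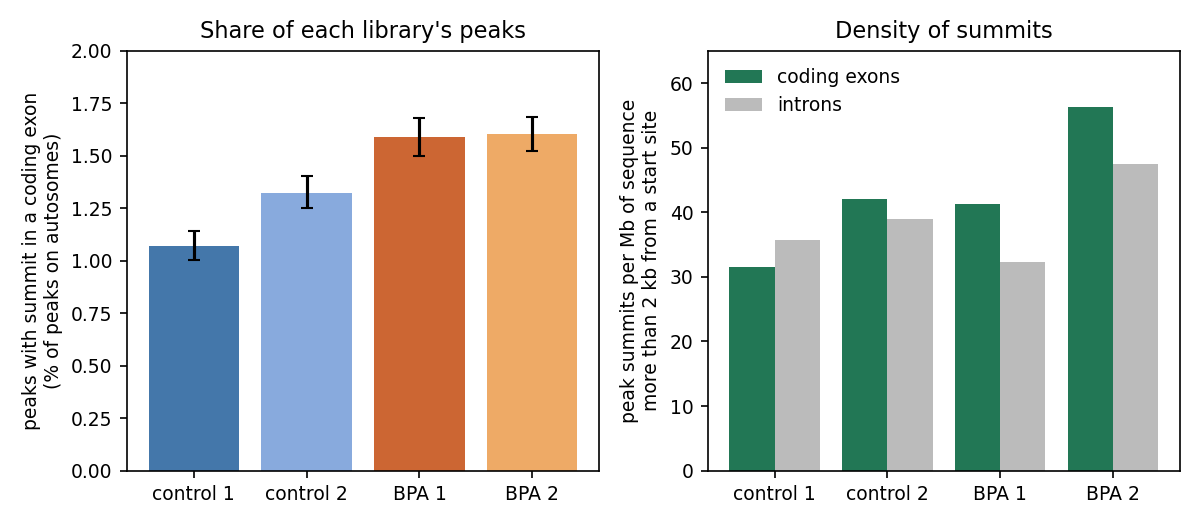
Left, share of each library's autosomal peaks with the summit in a coding exon, in percent, with 95% Wilson intervals that cover counting error only. Right, peak summits per Mb of coding bases and of intron bases more than 2 kb from a start; the coding density lay below the intronic one in control 1 (31.6 against 35.8) and above it in the other 3 libraries.

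The coding bases far enough from a start summed to 27.4 Mb, 1.11% of the autosomes. The density of summits there, divided by that over all autosomal sequence, was 0.963 and 1.19 in the controls and 1.43 and 1.44 in the BPA libraries. In control 1, coding exons held 31.6 summits per Mb and introns 35.8. In control 2 the densities were 42.0 and 39.0, in BPA 1 41.2 and 32.3, and in BPA 2 56.3 and 47.5. The ratio of the coding to the intronic density was 0.883, 1.08, 1.28 and 1.18 in the same order, with a mean of 1.11 ± 0.169 (SD, n = 4), so coding exons were neither clearly poorer nor clearly richer in summits than introns.

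Peaks in coding exons were of ordinary strength. Each list was ordered by its −log10 q-value, and a peak's rank is its place in that order in percent, with the best peak near 0. Coding-exon peaks had a median rank of 55.8% and 53.7% in controls 1 and 2, and of 60.5% and 58.8% in BPA 1 and 2. Intronic peaks had median ranks of 56.6%, 55.8%, 59.7% and 59.2%, whereas peaks within 2 kb of a start reached 14.9%, 18.9%, 13.2% and 9.46%. The coding-exon median differed from the intronic one by a mean of −0.637 percentage points ± 1.16 (SD, n = 4) and was the better one in 3 of 4 libraries (exact sign-flip permutation test over the libraries, two-sided, p = 0.375, smallest possible 0.13). The direction of this small difference changed with how an exon was defined.

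The median summit held 21 and 22 reads in the controls, against 16 (BPA 1) and 34 (BPA 2). The weakest coding-exon peak of each list had 9, 9, 6 and 11 reads and the strongest 119, 114, 262 and 528. A site of ordinary strength was thus a few times above its local background, with a median fold of 3.78, 4.11, 5.1 and 4.51 over it, and BPA 2 had the deepest summits.

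The base composition set coding-exon peaks apart from intronic ones. Over the summit and 100 bp either side of it, coding-exon peaks had a median G+C content of 53.7% and 53.2% in the controls (1 and 2) and of 56.2% and 55.7% in the BPA libraries (1 and 2). Intronic peaks had 45.8%, 47.3%, 49.3% and 48.3%, so the coding-exon value was higher in 4 of 4 libraries by a mean of 7.09 percentage points ± 0.850 (SD, n = 4; exact sign-flip permutation p = 0.13, the smallest possible). The centres of all 161165 coding exons that could hold a site had a median of 49.8%. Between the groups, the mean of the coding-exon medians was 53.5% ± 0.352 in the controls and 56.0% ± 0.352 in the BPA libraries (SD, n = 2 each, exact permutation p = 0.33), and intronic peaks moved alike, from 46.5% to 48.8%.

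The exons that held a site were longer and richer in G+C than coding exons at large. Host exons had a median length just above 200 bp, with quartiles of 132 and 886 bp, against 132 bp with quartiles of 94 and 187 bp for all exons that could hold a site. A site lay in 2824 of these exons, or 1.75%. The shortest host exon was 22 bp and the longest 19585 bp.

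The share of exons with a site rose with exon length, while the density per base changed little. A site lay in 0.725% of exons of up to 100 bp and in 6.78% of exons over 2000 bp. Per Mb of coding bases, the same bins held 100 and 97.7 sites, and the highest density was 134 sites per Mb in exons of over 500 and up to 1000 bp.

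G+C content, by contrast, went with the density itself. Exons with up to 40% G+C held 37.5 sites per Mb, those with 50 to 55% held 103, those with 60 to 65% held 142, and those over 65% held 415. In the last bin 319 of 2040 exons, 15.6%, had a site, against 127 of 26423, 0.481%, in the first. The step at the top was steeper than any below it, where the density was 2.92 times that of the bin below. CpG dinucleotides, the target of DNA methylation, followed: 19.8% of the 2858 site windows held at least 10 of them within 100 bp of the summit, against 5.31% of exon centres without a site and 1.20% of intronic sites. Among coding-exon sites the share was 33.3% for those in all 4 libraries, 22.9% for BPA-only (92 of 401) and 3.31% for control-only ones (4 of 121). Over all merged regions it was 9.23%. For regions in all 4 libraries it was 28.7% over all regions and 2.81% over intronic sites.

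**Figure D2:**
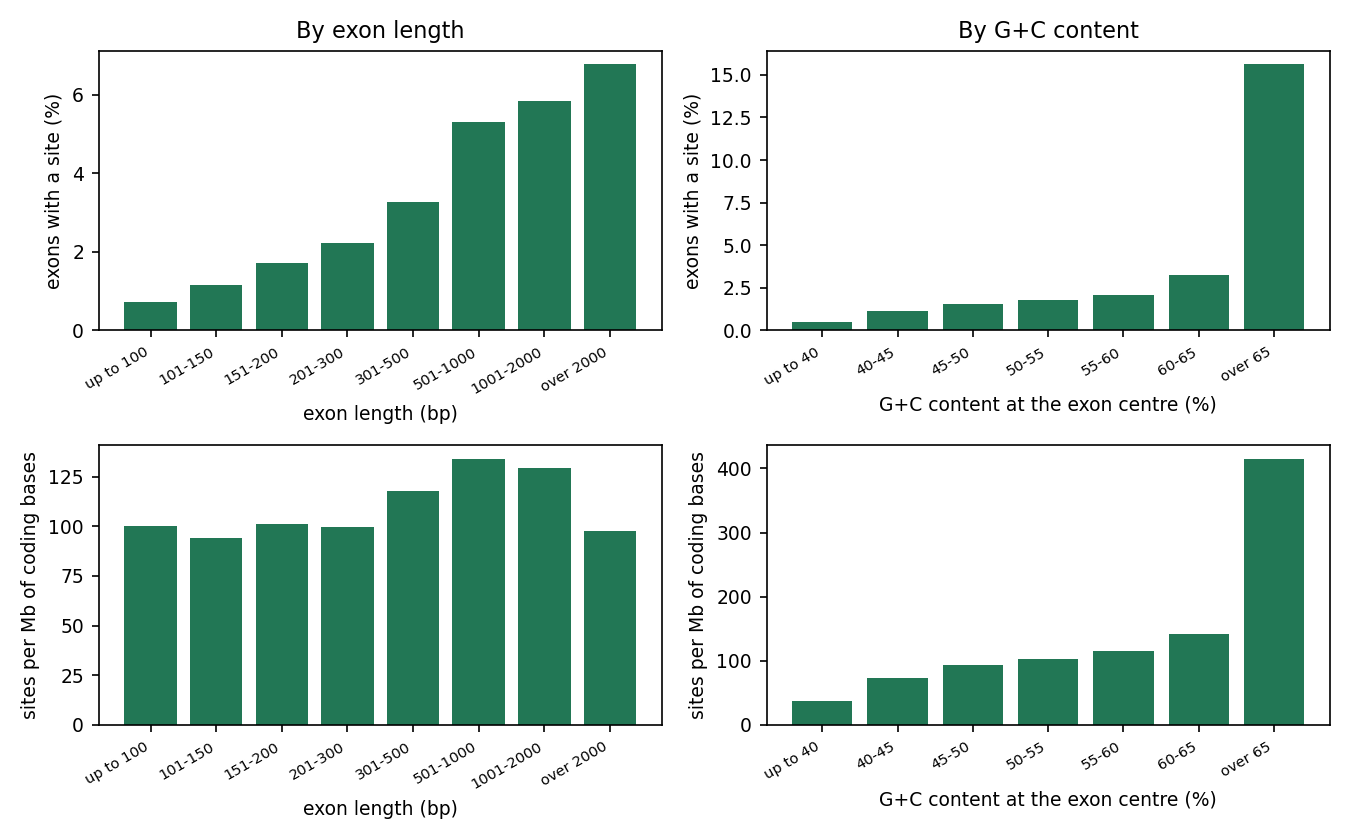
Coding exons that could hold a site, binned by exon length in bp (left) and by G+C content around the exon centre in percent (right). The upper bars give the percentage of exons with a site and the lower bars the sites per Mb of coding bases; density changed little with length (93.9 to 134) and rose from 37.5 to 415 with G+C content.

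Sites lay along the whole gene. The host exon was at the median the eighth of 15 exons. Last exons held 650 sites, or 127 per Mb of their coding bases, and internal exons 2199 sites, or 100.0 per Mb. Single-exon genes held 7 sites and first exons 2, as most first exons lie too near a start. Predicted RefSeq transcripts were not used by the rule, and 184 sites (6.44%) lay within 2 kb of a predicted start, 86 of them within 500 bp. Of those 184, 29.9% had a peak in all 4 libraries, against 25.1% of the others.

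About 25.4% of the coding-exon sites were shared by the 4 libraries. A site was counted as present in a library when any peak of that library overlapped it by at least 1 bp, wherever its summit lay. By this count 829 sites (29.0%) were present in 1 library, 745 (26.1%) in 2, 558 (19.5%) in 3 and 726 (25.4%, interval 23.8 to 27.0) in all 4. The share in all 4 was 20.1% for intronic sites, 20.5% for intergenic sites, 22.5% for sites in untranslated exon parts, 70.1% for sites within 2 kb of a start and 26.3% over all 144198 merged regions. Sites in more libraries had a better best rank and were wider, both of which also follow from taking the best of, or merging, more peaks. The median of the best rank went from 82.5% for 1 library over 52.9% and 38.1% to 21.8% for all 4, and the median width from 385 to 928 bp.

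The summit moved between libraries even where the opening was shared. A peak with its own summit in the coding exon was found in 1 library at 1755 sites, in 2 at 606, in 3 at 283 and in all 4 at 214. Thus 236 of the sites present in all 4 libraries owed their place among the coding-exon sites to the summit of 1 library. On this narrower count 7.49% of the sites were shared by all 4.

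Sites of 1 group were weighted toward BPA. Both BPA libraries and neither control library had a peak at 401 sites (14.0%, interval 12.8 to 15.4), where 9.48% of all merged regions showed this pattern. Both control libraries and neither BPA library had a peak at 121 sites (4.23%, 3.55 to 5.04), where 5.28% of all regions did. The ratio of the first count to the second was 3.31 for coding exons, 2.03 for introns, 1.80 for all regions and 3.25 within 2 kb of a start. The 4 other pairings of 1 control with 1 BPA library held 223 sites in all, of which 126 were control 2 with BPA 2. With 2 libraries a group, a site of 1 group was not tested as a difference between groups.

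**Figure D3:**
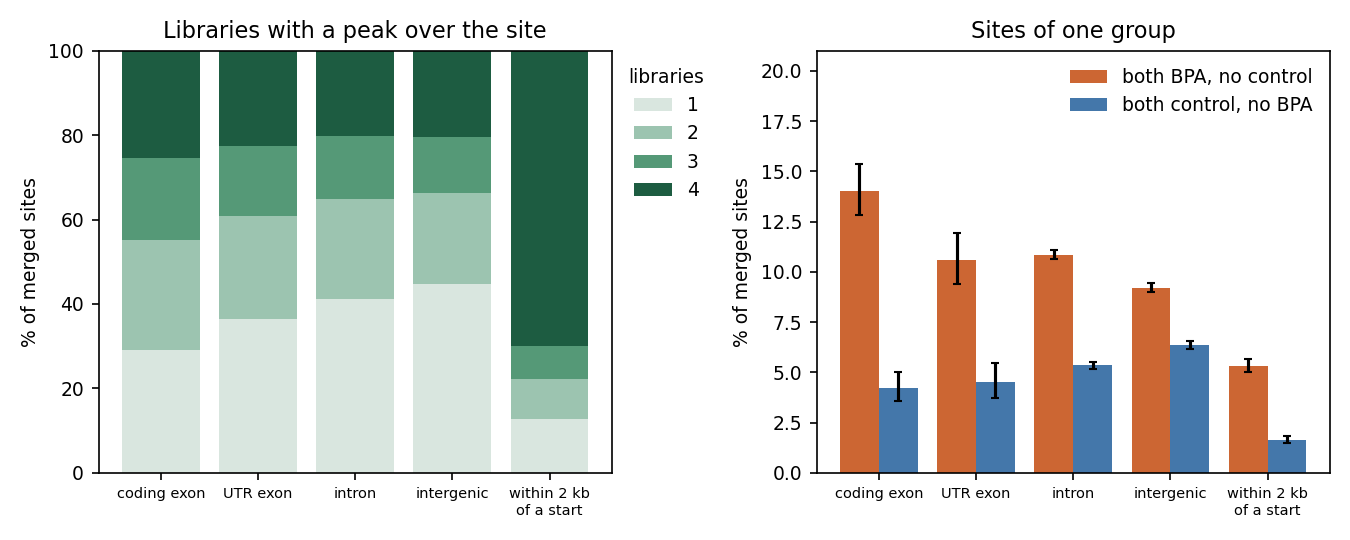
Left, merged sites of 5 classes by the number of libraries with an overlapping peak, in percent of the class. Right, percentage of sites with a peak in both libraries of 1 group and none in the other, with 95% Wilson intervals; coding-exon sites had 14.0% for BPA and 4.23% for control.

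The shares of BPA-only and control-only sites varied with G+C content in both coding exons and introns. The BPA-only share of coding-exon sites was 8.90% among the sites lowest in G+C content, of 5 bins of like size, 12.1%, 15.0% and 13.6% in the next 3 and 20.7% in the highest. Intronic sites in the same ranges of G+C content had 7.14%, 13.0%, 15.4%, 17.2% and 15.9%. The control-only share fell over the same bins, from 8.03% over 6.12%, 3.95% and 2.56% to 0.177% (1 site of 564) in coding exons and from 7.03% to 1.50% in introns. Over all sites, the coding-exon share exceeded the intronic one by 3.17 percentage points for BPA-only sites and by 0.383 points once the intronic sites were weighted to the same G+C content. By bin, the coding-exon BPA-only share was above the intronic one in the lowest and the highest and below it in those between. The weighted value thus averages differences of opposite direction. The control-only difference went from −1.12 to 0.486 points under the same weighting, and the difference in the share present in all 4 libraries from 5.27 to −1.92 points. The weighting was chosen after seeing the data, and the part of G+C content in these differences was not tested.

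**Figure D4:**
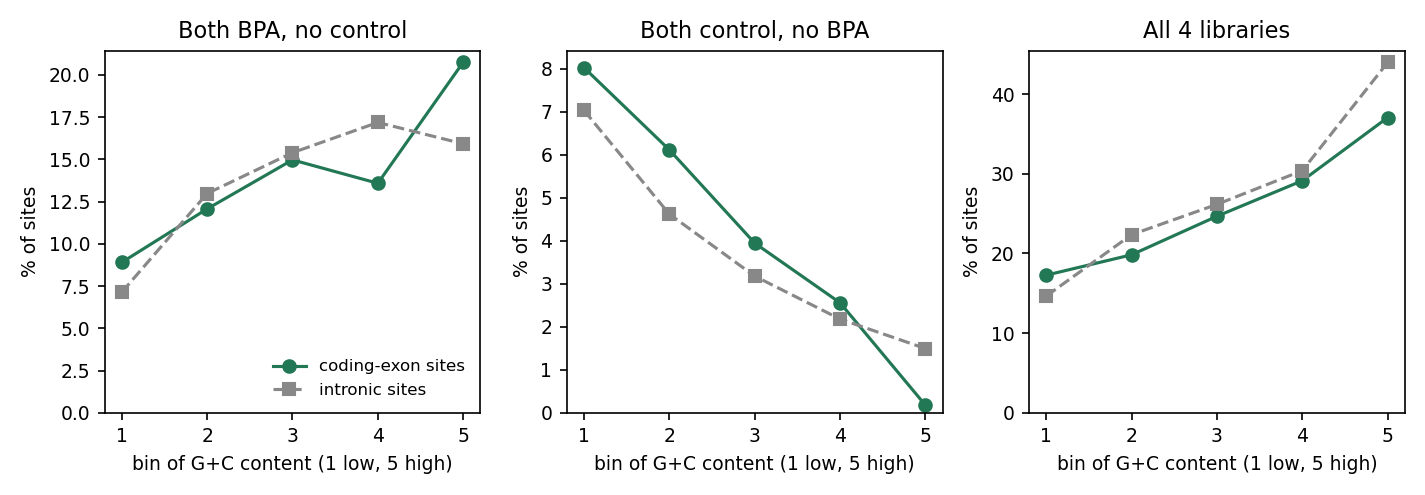
Percentage of coding-exon sites (circles) and intronic sites (squares) with a peak in both BPA libraries alone, in both control libraries alone and in all 4 libraries, in 5 bins of the G+C content of the coding-exon sites, from low to high. In both kinds of site the control-only share fell and the share in all 4 rose from bin to bin, in coding exons from 8.03% to 0.177% and from 17.3% to 37.1%, while the BPA-only shares moved in opposite directions over the last 3 bins.

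The strongest shared site lay in exon 7 of 9 of Spaca6, which encodes a sperm membrane protein needed for fusion with the egg (chr17:17837527-17838804). Its best peak ranked at 0.905% and 0.441% in controls 1 and 2 and at 0.0718% and 0.511% in BPA 1 and 2, with folds of 6.68, 8.45, 14.2 and 11.2 over the local background. It stood among the top 1% of peaks in every library, although the summit was coding in BPA 1 alone. The nearest curated start was that of Spaca6 itself, 7191 bp away. In exon 6 of Prdm2, a PR-domain zinc finger protein, the ranks were 1.26%, 3.21%, 0.580% and 0.0775%, and a predicted Prdm2 start lay 5 bp from the summit.

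Of the 8 best shared sites, 3 had a coding summit in all 4 libraries. Exon 10 of Prss36, a secreted serine protease, held one with folds of 8.51, 8.87, 12.5 and 12.3, 901 bp from a predicted Prss36 start. Exon 17 of Ankrd24, an ankyrin repeat protein, held another in a stretch of 71.1% G+C, with folds of 6.40, 7.66, 14.9 and 11.7. The third, in the last exon of Synpo2l, an actin-associated protein of the muscle Z-disc, was wholly coding, in an exon of 3518 bp, and had folds of 7.63, 9.41, 15.2 and 12.8 at ranks of 6.12%, 5.35%, 2.77% and 3.42%. The other well-ranked shared sites lay in Btbd19, in the last exon of Bcat2, the mitochondrial branched-chain aminotransferase, and in exon 7 of Camk2g, a subunit of calmodulin-dependent kinase II. At these 3 the summit was coding in 1 library, and at Bcat2 5.6% of the bases of the leading peak were coding.

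The 6 BPA-only sites of best rank lay between 12.8% and 20% in the lists of both BPA libraries. The site in exon 24 of Tanc1, a postsynaptic scaffold protein, had folds of 9.79 and 8.80 in BPA 1 and BPA 2, with 57 and 123 reads at the summit. In exon 23 of Uba7, the activating enzyme for the ubiquitin-like protein ISG15, the folds were 4.48 and 3.11 at 110 and 279 reads. The site in exon 14 of Dclk2, a microtubule-associated kinase, had a coding summit in both BPA libraries, with folds of 8.96 and 8.17. The other sites chosen by this rule lay in Cyth1, an exchange factor for ARF GTPases, P2rx3, an ATP-gated channel of sensory neurons, and Klf7, a zinc finger transcription factor, with folds between 5.74 and 8.33. A predicted start of Gm13748 lay 517 bp from the Klf7 summit. No peak was listed over any of these 6 sites in either control library, which says that none passed the caller's threshold at the depth of those libraries.

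The 6 control-only sites were taken from a shorter list than the 6 BPA-only ones, so the tops of these lists are not comparable. Over all sites of each kind the median rank of the weaker library was 70.9% for control-only and 75.4% for BPA-only sites. D930020B18Rik had ranks of 17.6% and 11.1% and folds of 6.52 and 7.93 in control 1 and control 2, and its summit was coding in both. Exon 4 of Ctnna3, the alpha-T-catenin of cell junctions, had folds of 5.99 and 6.77. The site in exon 15 of Met, the receptor of hepatocyte growth factor, had folds of 3.95 and 5.27 with 34 and 33 reads. Gucy1a1, a subunit of the nitric oxide receptor guanylate cyclase, Hmmr, a hyaluronan receptor, and Strn3, a striatin, held the others, with folds between 4.90 and 5.83. Hmmr and Strn3 had coding summits in both control libraries at 48.3% and 37.8% G+C.

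**Figure D5:**
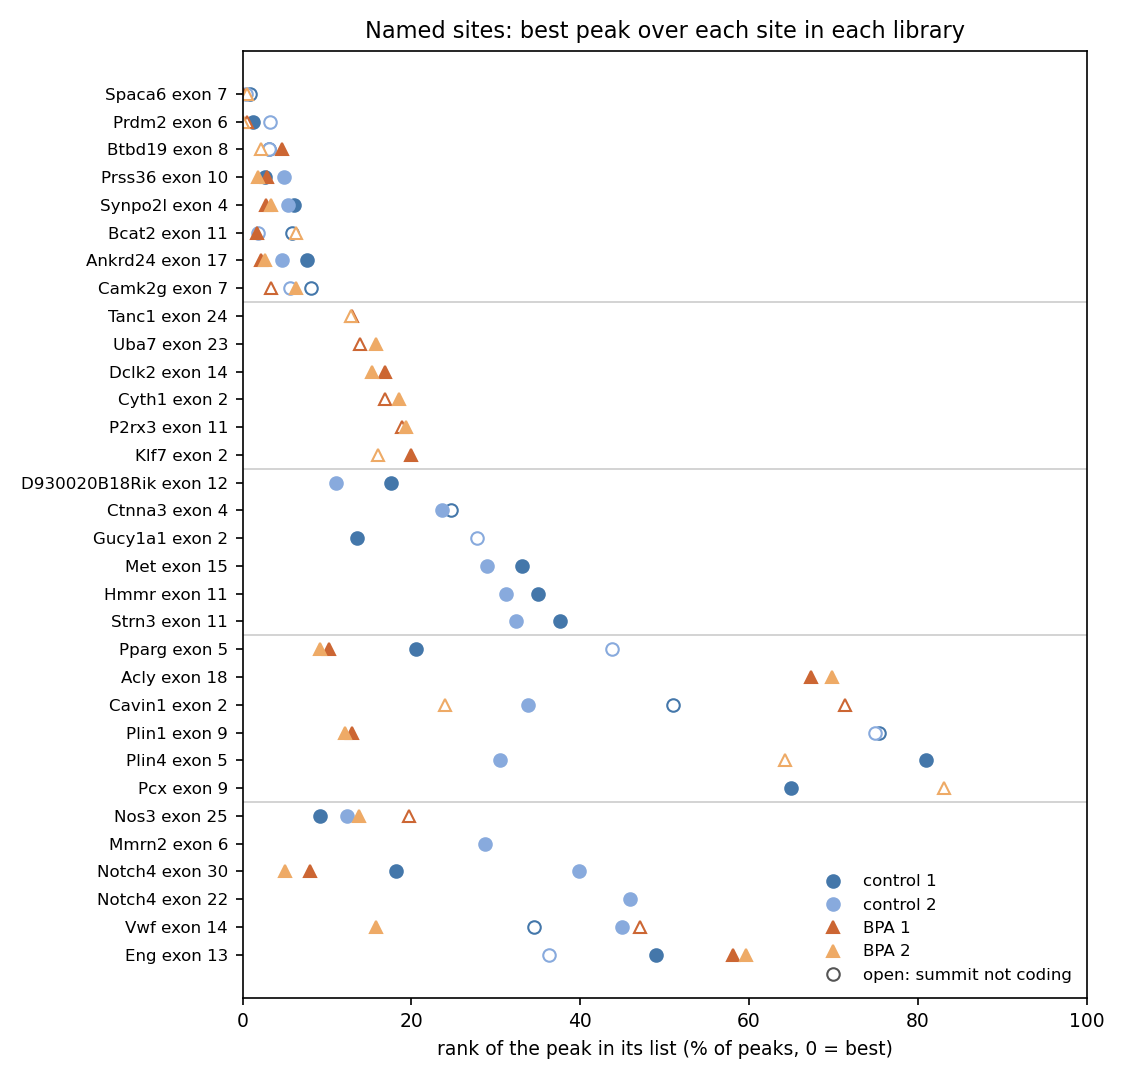
Rank in percent of the best peak over each named site in each library, from the strongest (0) to the weakest (100). Blocks from top to bottom are sites in all 4 libraries, BPA-only, control-only, adipocyte-list and endothelial-list sites; filled symbols had the summit on coding bases, and at Plin1 exon 9 the control libraries lay at 75.4% and 74.9% and the BPA libraries at 12.9% and 12.2%.

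Genes of the adipocyte, which stores triglyceride in a lipid droplet and takes its identity from the nuclear receptor PPARγ, were hosts somewhat more often than genes at large. Of 50 listed adipocyte genes with a coding exon far enough from a start, 12 (24.0%) held 14 sites, against 14.5% of all such genes, and 2 of the 14 were BPA-only and 0 control-only, against the 9.48% and 5.28% of all regions. The density was 155 sites per Mb of coding bases, against 105 over all genes. Counts this small were not tested.

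Exon 5 of Pparg held a site in all 4 libraries, with folds of 5.04, 4.0, 12.7 and 9.27 at ranks of 20.5%, 43.7%, 10.2% and 9.18%. The last exon of Plin1, the coat protein of the lipid droplet, held one with folds of 2.38, 2.39, 6.43 and 5.29 at ranks of 75.4%, 74.9%, 12.9% and 12.2%. Both BPA libraries were stronger than both controls at these exons, and at Plin1 the summit was coding in the BPA libraries alone. Folds were higher in BPA at large, with coding-exon medians of 3.78 and 4.11 in the controls against 5.1 and 4.51. Within 2 kb of a start the medians were 5.31 and 5.77 against 8.86 and 8.32. The median rank of coding-exon peaks was worse in BPA (60.5% and 58.8%) than in the controls (55.8% and 53.7%). The part of these library-wide differences, or of G+C content, at Pparg and Plin1 was not tested. The pile-up at Plin1 was 30, 33, 82 and 203 reads in a stretch of 72.6% G+C. Acly, the ATP-citrate lyase that supplies acetyl-CoA for lipid synthesis, had 2 sites, 1 of them in all 4 libraries. The other, in exon 18, was BPA-only, with folds of 5.47 and 4.55 at ranks of 67.4% and 69.8%. Plin4, a further coat protein of lipid droplets, went the other way in part, with folds of 2.05 and 2.56 in the controls, no peak in BPA 1 and 2.14 in BPA 2. Cavin1, which shapes caveolae, had a site in all 4 libraries with folds of 2.66, 3.40, 2.19 and 2.82, and the groups overlapped there. Pcx, the pyruvate carboxylase, had a weak site in control 1 and BPA 2.

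Endothelial genes held the densest sites of the lists. Of 37 such genes 17 (45.9%) held 20 sites, or 213 per Mb, with 6 in all 4 libraries, 4 (20%) BPA-only and 0 control-only. Among all coding-exon sites 14.0% were BPA-only and 4.23% control-only, and among all regions 9.48% and 5.28%, and with 20 sites these counts were not tested. The sites had a median G+C content of 59.5%, above the 53.7% of all coding-exon sites. In the last exon of Notch4, the Notch receptor of endothelium, the folds were 4.16, 3.50, 6.70 and 5.97, with a coding summit in every library. In exon 25 of Nos3, the endothelial nitric oxide synthase, they were 5.96, 6.12, 6.21 and 5.94 and did not part the groups. Vwf, the von Willebrand factor, and Eng, the TGF-β co-receptor endoglin, had sites in all 4 libraries as well, while Mmrn2, a matrix protein of vessels, had one in control 2 alone. Chosen after its values were seen, Notch3, the Notch receptor of vascular smooth muscle, had 3 sites, with 2 in all 4 libraries and 1 BPA-only.

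Endothelial and some other cell type markers also differed between the libraries at their own promoters, while adipocyte and hepatocyte markers did not. A peak lay at the start of 7 of 7 adipocyte markers in every library, at 3 and 2 of 6 endothelial markers in the controls and 6 and 6 in the BPA libraries, and at 3 and 2 of 6 leukocyte markers against 4 and 4. Hepatocyte markers had a peak at 0 of 3 starts in each library. Mesothelial markers had one at 2 and 2 of 3 starts in the controls and at 2 and 1 in BPA 1 and BPA 2, epithelial markers at 2 and 0 of 3 against 1 and 1, and germ cell markers at 0 and 1 of 4 against 1 and 2. In bulk tissue a change in the number of cells of a type and a change in accessibility per cell cannot be told apart, and the part of cell composition in the sites described here was not tested.

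Matrix genes were hosts in 17 of 53 cases (32.1%), but their long coding sequence brought the density to 94.8 sites per Mb, below the 105 of all genes. Ltbp2 and Col8a2, a latent TGF-β binding protein and a collagen, had sites in all 4 libraries, with folds at Ltbp2 of 5.58, 5.97, 7.55 and 7.59. Tnxb, a tenascin, had one in all 4 and Col6a3, a chain of the collagen of adipocyte matrix, in 3. Of the 3 sites of Col12a1, 1 was BPA-only and 1, in exon 36, was control-only, with folds of 4.95 and 5.07. Ltbp4 held a BPA-only site in exon 29, with folds of 6.16 and 4.63.

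Chromatin regulators were hosts in 23 of 52 cases (44.2%), again at a density near that of all genes, 100 sites per Mb. Of their 32 sites 6 were in all 4 libraries, 7 (21.9%) BPA-only, 3 of them in Kmt2a, and 0 control-only. Among all coding-exon sites 14.0% were BPA-only and 4.23% control-only, and among all regions 9.48% and 5.28%. With 32 sites these counts were not tested. Kmt2a, a histone H3 lysine 4 methyltransferase, held 3 sites, in exons 3, 11 and 27, and each was BPA-only with a coding summit in both BPA libraries. The strongest, in exon 27 of 4237 bp, had folds of 6.21 and 5.42 and was wholly coding. The last exon of Chd9, a chromodomain helicase, had a coding summit in all 4 libraries, with folds of 5.87, 7.66, 9.75 and 10.9, as did exon 66 of Trrap, a scaffold of histone acetyltransferase complexes, and exon 17 of Ncoa2, a nuclear receptor coactivator. The best-ranked sites of Nsd1 and Asxl2 were each present in 1 control library.

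Of 23 leukocyte genes 3 were hosts. Spi1, which encodes the myeloid factor PU.1, had a coding summit in its last exon in all 4 libraries, with folds of 6.15, 6.18, 9.46 and 8.36, and the nearest start was that of Mybpc3, 2912 bp away. Coro1a, an actin-binding protein of leukocytes, had a site in 3 libraries, and Runx3, a lymphoid transcription factor, a BPA-only one.

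Gene families differed widely in how often they were hosts. Only 3 of 109 olfactory receptor genes (2.75%) and 2 of 67 protocadherin genes (2.99%) held a site, at 31.3 and 42.1 sites per Mb. Zinc finger genes, many of which end in a long exon that encodes repeated fingers, had 54 hosts among 469 (11.5%) at 69.2 per Mb. Keratins had 7 hosts among 49 (14.3%) and potassium channels 15 among 86 (17.4%), against 14.5% of all genes. Their 7 and 18 sites came to 165 and 152 per Mb, against 105 over all genes, and these small counts were not tested. The median G+C content of the keratin sites was 62.7% and that of the potassium channel sites 59.0%.

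Most host genes, 2157 of 2466, held a single site. Another 252 held 2, 43 held 3 and 14 held between 4 and 8. Syne1, which encodes nesprin-1, a giant link between the nucleus and actin, had 8 sites over 26060 bp of coding sequence, at 3.07 per 10 kb. Of those 8, 2 were in all 4 libraries, 1 was control-only, and 3 were in 1 library. Dst and Macf1, cytoskeletal linkers of the plakin family, and Sptbn5, a spectrin, had 6 sites each, and Ccdc162 had 5. The strongest site of Syne1, in exon 55, had folds of 7.46, 8.25, 9.81 and 7.60, and that of Dst, in exon 26, 7.80, 8.44, 10.6 and 7.21. Syne1, Dst and Macf1 had 2.66 to 3.07 sites per 10 kb, Sptbn5 5.52 and Ccdc162 7.75. The value over all genes, most of which held no site, was 1.05. These 5 genes were chosen for their number of sites, so their densities cannot be read as an excess over that value.

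The promoters of host genes were more often open than those of other genes. A peak within 500 bp of a curated start was found in all 4 libraries for 71.7% of the 2466 hosts and for 64.0% of the 14554 genes with a suitable exon and no site. The share was 68.4% for hosts of sites in all 4 libraries, 67.4% for hosts of BPA-only sites and 79.3% for hosts of control-only sites. Hosts had more coding sequence on offer, with a median of 2054 bp against 1056 bp, and the part of gene length in the difference was not tested.

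Letters of known motifs were sought on both strands within 100 bp of each summit. The insulator factor CTCF, searched by a 12-letter consensus, had a match at 77 coding-exon sites (2.69%), close to the 2.49% of intronic sites and the 2.71% of all regions, and at 0.127% of exon centres without a site. For 43 of the 77 the match was wholly coding. It was found in 4.27% of sites in all 4 libraries, in 0.998% of BPA-only (4 of 401) and in 0.826% of control-only sites (1 of 121). Of intronic sites in all 4 libraries 3.87% had a match, and of all regions in all 4 libraries 3.37%. The match is shown in capitals for the pair of best-ranked sites in all 4 libraries where it was coding, on the minus strand at chr14:20661122-20661213 and at chr3:8664652-8664743.
Synpo2l last exon: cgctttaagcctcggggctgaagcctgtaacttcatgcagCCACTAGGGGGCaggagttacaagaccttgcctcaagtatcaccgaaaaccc
Hey1 last exon: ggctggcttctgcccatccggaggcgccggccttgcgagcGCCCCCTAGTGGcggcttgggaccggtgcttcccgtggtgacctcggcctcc

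Hey1 encodes a repressor that Notch receptors switch on, and the site had folds of 3.65, 4.34, 4.39 and 2.77 with a coding summit in all 4 libraries. The centre of the match lay 38 bp from the leading summit at both genes.

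The other motifs differed between coding-exon and intronic sites to unlike degrees. The AP-1 letters TGANTCA were in 5.74% of coding-exon windows, 11.0% of intronic windows and 4.65% of exon centres without a site. The C/EBP letters TTGCNNAA, bound by a family that drives fat cell differentiation, were in 10.2%, 13.5% and 7.97%. The GC box GGGCGG went the other way, with 12.2%, 4.62% and 4.71%. It was in 16.5% of coding-exon sites of all 4 libraries, 15.0% of BPA-only (60 of 401) and 2.48% of control-only sites (3 of 121). It was in 9.60% of all regions and in 23.3% of all regions present in all 4 libraries. The ETS letters CCGGAAG were in 3.32% of coding-exon windows, 1.14% of intronic windows, 2.24% of exon centres without a site and 2.29% of all regions. Among coding-exon sites they were in 2.34% of those in all 4 libraries, 5.49% of BPA-only (22 of 401) and 1.65% of control-only ones (2 of 121). Of all regions present in all 4 libraries, 5.28% held them. CCAAT was in 20.7% and the E-box CACGTG in 3.85% of coding-exon windows. Intronic windows had 24.0% and 3.05%, and all regions 24.8% and 3.27%. The BPA-only and control-only shares were 7.73% and 7.44% for AP-1 and 6.98% and 14.9% for C/EBP. For CCAAT they were 13.2% and 20.7%, and for the E-box 3.24% and 4.96%. Differences between BPA-only and control-only shares were not tested. The sets differ in base composition, whose part in these shares was not tested, and a match describes the letters alone.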

How the data were processed

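ATAC-seq libraries of visceral adipose tissue (2 control, 2 BPA, all CD-1) were trimmed with Trim Galore, mapped to mm10 with Bowtie2 2.3.5.1, filtered with SAMtools and called one by one with MACS2 2.2.7.1, per the labels and the study's methods. The authors deposited 1 peak list per library, with a score (10 times the −log10 q-value), the fold of the summit pile-up over the local background, and the −log10 p-value and −log10 q-value. Read totals are not in the lists. The whole-number pile-up was solved from the authors' fold and −log10 p-value, within a relative error of 0.0001.

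Summits were placed on curated RefSeq transcripts of GRCm38 (43783 on chromosomes 1 to 19, with 30177 distinct starts). A class was given in the order start, coding exon, other exon, intron, intergenic. The host transcript was the one with the longest coding sequence. Overlapping coding-exon peaks were merged by at least 1 bp. G+C content was read from the summit and 100 bp either side of the best-ranked peak. Intervals are 95% Wilson intervals and cover counting error only. Groups were compared by exact permutation over libraries, coding exons with introns by exact sign flips over the 4 libraries. Python 3.11.15, numpy 2.4.6, scipy 1.17.1, pandas 2.3.3 and matplotlib 3.10.9 were used, and the steps were tested on simulated data.

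Named were the 8 best-ranked sites in all 4 libraries, the 6 best BPA-only and 6 best control-only sites, the 5 genes with most sites and up to 6 sites of each gene list, ranked by the worst of the site's ranks over the libraries that held it. Hey1, Notch3 and the Kmt2a sites beyond the first were added after their values were seen. Members, lists and motifs were chosen with earlier results of these data known. Protein sequences were not used here.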

Additional observations from a re-analysis of the deposited data

How the results depend on the processing

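The 11 results were recomputed under 121 alternatives, of which 81 were counted as the same. For the tested differences in share of peaks, rank and G+C content this meant the same direction only, with no limit on size. For the other results it meant staying within a set limit of size. The share of peaks in coding exons was higher in BPA under each alternative run, by 0.178 to 0.550 percentage points in the mean. Where at least 50% of the peak was coding (0.178), both BPA libraries no longer lay above both controls (exact permutation p = 0.667). The G+C difference from introns stayed between 4.73 and 9.83 points. No alternative could reach p under 0.05. Labels give both groups replicates 1 and 2, and with the replicate block the difference in share was the same 0.398 points (exact p = 0.5, the smallest possible). Nothing says that equal numbers mark a shared animal or day, and the list of BPA 2 carried another number.

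The rank difference from introns reversed to 0.0365 points with whole exons, 0.311 without first and last exons, and 2.07 where at least 50% of the peak was coding. The number of sites moved to 403 among the best 20000 peaks of each list, 4781 with whole exons and 1198 at 50% coding. BPA-only sites moved to 78 (best 20000), 163 (50% coding), 261 (coding summits only) and 258 (host exon as unit), and control-only sites to 56 (−log10 q of at least 5), 33 (best 20000), 210 (whole exons) and 43 (50% coding). The share in all 4 libraries was 21.6% at −log10 q of at least 5, 17.9% for the best 20000, 23.3% with whole exons, 7.49% for coding summits only, 11.0% for 50% mutual overlap and 7.24% per host exon. Median host exons were 212 bp at −log10 q of at least 5, 291 (best 20000), 942 (whole exons), 164 (no first or last exon), 211 and 192 (1 and 5 kb from starts) and 793 (50% coding). Weighting introns to the same G+C content gave 0.383 points for BPA-only, 0.486 (reversed) for control-only and −1.92 (reversed) for all 4. The cause of these shifts was not tested, except that stricter settings hold fewer peaks.

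Leaving out 1 library at a time gave 2199 to 2571 sites, 31.9% to 35.3% in all 3 remaining libraries, 158 to 336 control-only and 381 to 661 BPA-only sites, a share difference of 0.271 to 0.524 points, a rank difference of −1.10 to −0.163, a G+C difference of 6.80 to 7.46 and median exons of 206 to 210 bp. Control-only sites came to 336 without control 1, 213 without control 2 and 242 without BPA 2, and BPA-only sites to 603 without control 2 and 661 without BPA 1, since 1 library then stands for a group or a group is compared with 1. Pile-ups of 16 to 34 reads at the median summit limit what an absent peak can mean.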
